A study of Mus musculus with 18 samples.

Results

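The genes described here copy DNA and supply the deoxynucleotides for it. They were chosen as a list of 47 genes, and each was represented by its brightest probe set carrying a single gene symbol, by the mean over all arrays. Sets with a cross-hybridisation suffix were passed over, even if brighter, where the gene had another. Of the 47 genes, 46 had a probe set with a single symbol, out of 18193 genes measured in the series. Chaf1a, the large subunit of chromatin assembly factor 1, had none in the annotation used. Signals are log2 intensities of whole-tumor RNA on 18 Affymetrix Mouse430_2 arrays, and values in each list follow the replicate numbers of the group.

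Tumors were formed by MC38, a mouse colon carcinoma line, injected subcutaneously into C57BL/6-Ly5.1 mice aged 6 to 12 weeks. The MEKi/CD40 group (4 tumors) received the MEK inhibitor GDC-0623 daily at 30 mg/kg together with an agonist antibody against CD40. The MEKi group (5 tumors) received the inhibitor and a control antibody, the anti-CD40 group (4 tumors) the agonist antibody and the vehicle MCT, and the control group (5 tumors) vehicle and control antibody. Dosing lasted about 2 weeks, antibodies were injected on treatment days 3, 5 and 7 and again 1 day before sampling, and tumors were taken on day 22 after inoculation. A tumor piece holds tumor, stromal and immune cells of the host together, so fewer dividing cells and less RNA per cell cannot be told apart in any result below. Of 8 epithelial markers, 7 (Epcam, Krt8, Krt18, Krt19, Krt20, Vil1 and Cdx2) stayed under 3 on every array, close to the lowest deposited value of 2.16, although the label names a colon line, and Cdh1 alone was brighter.

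Before a cell divides, the origin recognition complex, Cdc6 and Cdt1 load rings of Mcm proteins onto chromatin, a step called licensing that geminin blocks once copying has begun. Cdc45 and the GINS complex turn each ring into a moving helicase, DNA polymerase alpha with primase lays down primers, and polymerases delta and epsilon extend them on the sliding clamp Pcna. Ribonucleotide reductase, thymidylate synthase, thymidine kinase and dUTPase keep the pools of DNA building blocks in balance. Many of these genes are transcribed as cells enter S phase, under control of E2F factors that are released from pocket proteins when growth signals, including those passing through MEK and ERK, drive cyclin-dependent kinases.

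Most replication genes fell with the inhibitor, both with and without the antibody. With MEKi/CD40, 37 of 46 genes fell and 0 rose against control (limma, adjusted p under 0.05 over 45037 probe sets), where 12.0% of all 18193 genes and 21.1% of the 10238 genes above a dim-signal filter fell and 7.65% of all genes rose. The median difference was -0.98 on the log2 scale over the 46 genes, beside 0 over all genes and -0.05 over those above the filter. With MEKi alone, 29 of 46 fell and 0 rose (background 5.09% of all genes lower and 6.08% higher), with a median difference of -0.55. With anti-CD40 alone 0 of 46 were called (background 0%), 6 of 46 (13.0%) had an unadjusted p under 0.05 in limma (6.19% of all genes did), and the median difference was -0.06. That count was 11 of 46 (23.9%, beside 6.89%) with the number series, described below, as a block. It was 0 of 46 (beside 5.50%) with all 18 arrays in 1 fit. The largest falls with MEKi/CD40 were those of Tk1 (3.04-fold), Gins1 (2.90-fold), Orc1 (2.77-fold), Pola1 (2.71-fold) and Mcm5 (2.70-fold). The mean signal ran MEKi/CD40, then MEKi, then both other groups, from low to high, in 44 of 46 genes. The exceptions were Gins3 and Tyms. The share of all genes with this order was not computed, and the genes were read in the same tumors. MEKi/CD40 against MEKi called 0 of 46 genes, as given below.

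**Figure D1:**
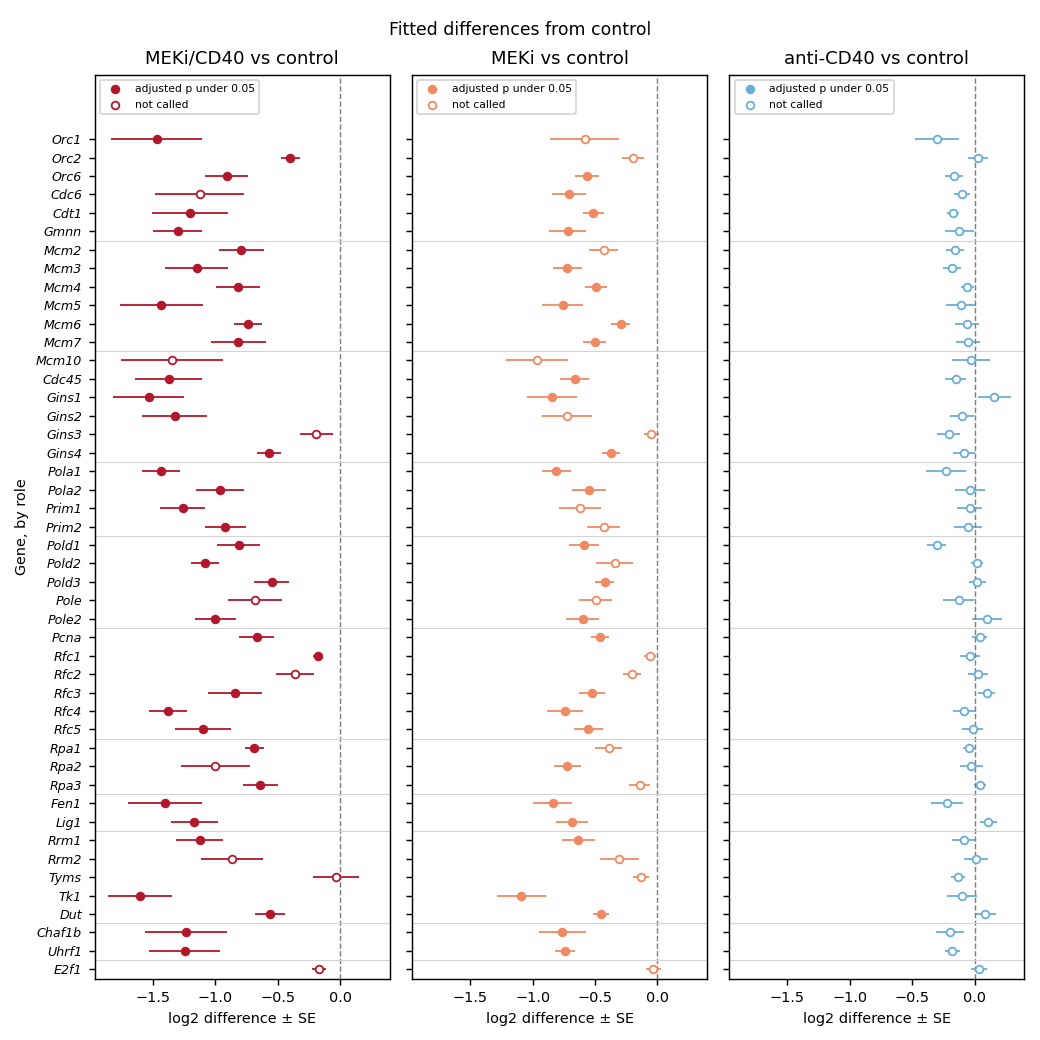
Fitted log2 differences from control (horizontal axes, bars are SE) of 46 genes ordered by role (vertical axis) in 3 panels, 1 per treatment. Filled points passed an adjusted p under 0.05, which holds for 37 genes in the MEKi/CD40 panel, 29 in the MEKi panel and 0 in the anti-CD40 panel.

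Individual tumors differed in how low these genes stood. The median deviation of the 46 genes from the control mean was -1.33, -1.20, -0.37 and -0.92 in MEKi/CD40 tumors, -0.72, -0.38, -0.75, -0.31 and -0.46 in MEKi tumors, -0.24, -0.017, -0.016 and -0.045 in anti-CD40 tumors and 0.11, 0.071, -0.053, -0.004 and -0.12 in control tumors. All MEKi/CD40 and MEKi tumors therefore lay below all anti-CD40 and control tumors by this median. Tumor 3 of the MEKi/CD40 group was the highest of its group by this median, though Dixon's criterion, given below, flagged it for Orc1 only. It was the highest of its group in 41 of 46 genes and the lowest in 3 (Gins3, Rpa3 and E2f1), it lay inside or above the MEKi range in 40, and it lay below every control in 36. The other 3 MEKi/CD40 tumors lay below every control in 44 genes and below every MEKi tumor in 25. The median SD over the genes was 0.40 in MEKi/CD40 tumors, 0.23 in MEKi tumors, 0.13 in anti-CD40 tumors and 0.12 in control tumors. Without tumor 3, 43 of 46 genes fell with MEKi/CD40 against control (background 13.1%), and Gins3, Tyms and E2f1 were not called. Tumor 3 was picked by these same genes, so neither that count nor those of the other 3 tumors are separate evidence. Leaving out each tumor in turn gave 21 to 43 genes with MEKi/CD40 (lowest without MEKi/CD40 tumor 1) and 14 to 32 with MEKi (lowest without control tumor 1).

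**Figure D2:**
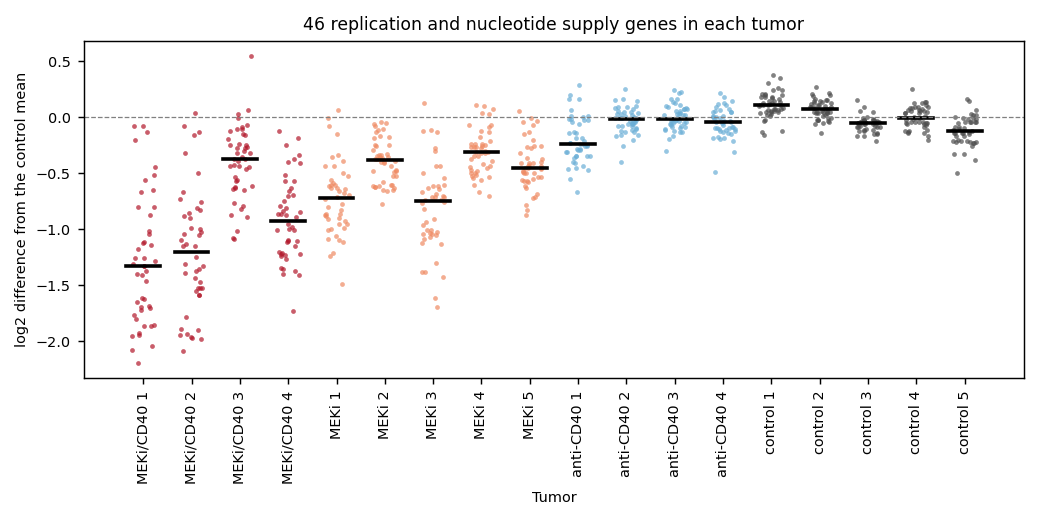
Log2 difference of each of 46 genes from the mean of the control tumors (vertical axis) in each tumor (horizontal axis). Points are genes and black bars are medians, which were -1.33, -1.20, -0.37 and -0.92 in the MEKi/CD40 tumors.

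Markers of some other cell types, and the sample numbers, differed between these groups. The mean log2 signal of 8 measured adipocyte markers was 4.12, 10.94, 5.22 and 6.68 in MEKi/CD40 tumors, between 3.97 and 4.95 in MEKi tumors, between 3.30 and 5.67 in anti-CD40 tumors and between 3.54 and 3.92 in control tumors. Lep, a defining adipocyte product, was above 2.2 on 1 array only, MEKi/CD40 tumor 2. Without the 3 arrays of highest adipocyte signal (MEKi/CD40 2 and 4, anti-CD40 3), or with that signal as a covariate, 6 of 46 genes fell with MEKi/CD40 against control in either analysis (background 6.15% and 5.13%), with medians of -0.88 and -0.85. Leaving out those arrays kept only MEKi/CD40 tumors 1 and 3, so fewer calls can also come from the smaller group. The 6 genes were Pola1, Pold2, Rpa1, Rpa3 and Rfc4 in both, with Gins4 in one and Prim1 in the other. With the same covariate 39 fell with MEKi against control (background 6.77%) with a median of -0.96. Every MEKi and MEKi/CD40 tumor had a higher adipocyte signal than every control tumor. The covariate fits against control therefore reach beyond a shared range and cannot separate treatment from that signal. A mean over 8 skeletal muscle markers was 8.56 in MEKi/CD40 tumor 4 and at most 2.83 on every other array. A mean over 6 fibroblast markers was 13.62 to 13.95 in MEKi/CD40 tumors, 12.51 to 13.36 in MEKi tumors, 11.11 to 11.91 in anti-CD40 tumors and 10.55 to 11.31 in control tumors, with overlap only between anti-CD40 and control. The mean over 3 red blood cell markers was 4.66 to 5.55 in MEKi/CD40 tumors, 3.54 to 4.37 in MEKi tumors, 3.65 to 3.87 in anti-CD40 tumors and 3.62 to 3.67 in control tumors. Its members moved in opposite directions in the MEKi/CD40 group, where 2 rose and 1 fell by the adjusted threshold. Hba-a2 read 5.55 to 6.32 there, beside 6.49 to 6.64 in control tumors. Alas2 read 5.63 to 7.15, beside 2.16 to 2.17, and Slc4a1 read 2.55 to 3.37, beside 2.19. The mean over 8 epidermis markers was 3.89 to 4.41 in MEKi/CD40 tumors, 3.66 to 4.54 in MEKi tumors, 3.38 to 3.60 in anti-CD40 tumors and 3.36 to 3.63 in control tumors, so all inhibitor-treated tumors lay above the rest. These means are dim, 2 of the 8 stayed under 3 on every array, and 1 was called higher with MEKi/CD40 and 2 with MEKi. The mean over 8 macrophage markers was 11.40 to 12.47 in MEKi/CD40 tumors, 10.82 to 11.74 in MEKi tumors, 11.47 to 12.02 in anti-CD40 tumors and 11.70 to 12.16 in control tumors. Of these 8, 1 was called lower with MEKi/CD40 and 2 with MEKi. The mean over 8 epithelium markers, mostly near the floor, was 2.44 to 2.61 in MEKi/CD40 tumors and 2.665 to 2.81 in control tumors. It was 2.47 to 2.735 in MEKi tumors and 2.66 to 2.73 in anti-CD40 tumors. Of these 8, 1 was called lower with MEKi/CD40 and 0 with MEKi. T cell, B cell and endothelium means overlapped control in both inhibitor groups. Of their markers only 1, of endothelium, was called against control (higher with MEKi/CD40). Apart from the adipocyte signal, the part of these markers in the results was not tested. The numbers in the sample titles formed a low and a high series, and no source used here says what they stand for. The low series held all MEKi/CD40 and anti-CD40 tumors, 2 MEKi tumors and 2 control tumors. With the series as a block, 16 genes fell with MEKi/CD40 against control (background 7.30%) with a median of -1.09, and 25 fell with MEKi (background 3.75%). All MEKi/CD40 tumors were in the low series, so their blocked difference rests on its 2 controls. It is the same estimate as within the low series alone. Within the low series alone 0 were called in either comparison (background 1.33% and 0.0495%), 32 and 28 had an unadjusted p under 0.05 (22.3% and 14.6% of all genes did), and the medians were -1.09 and -0.69.

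**Figure D3:**
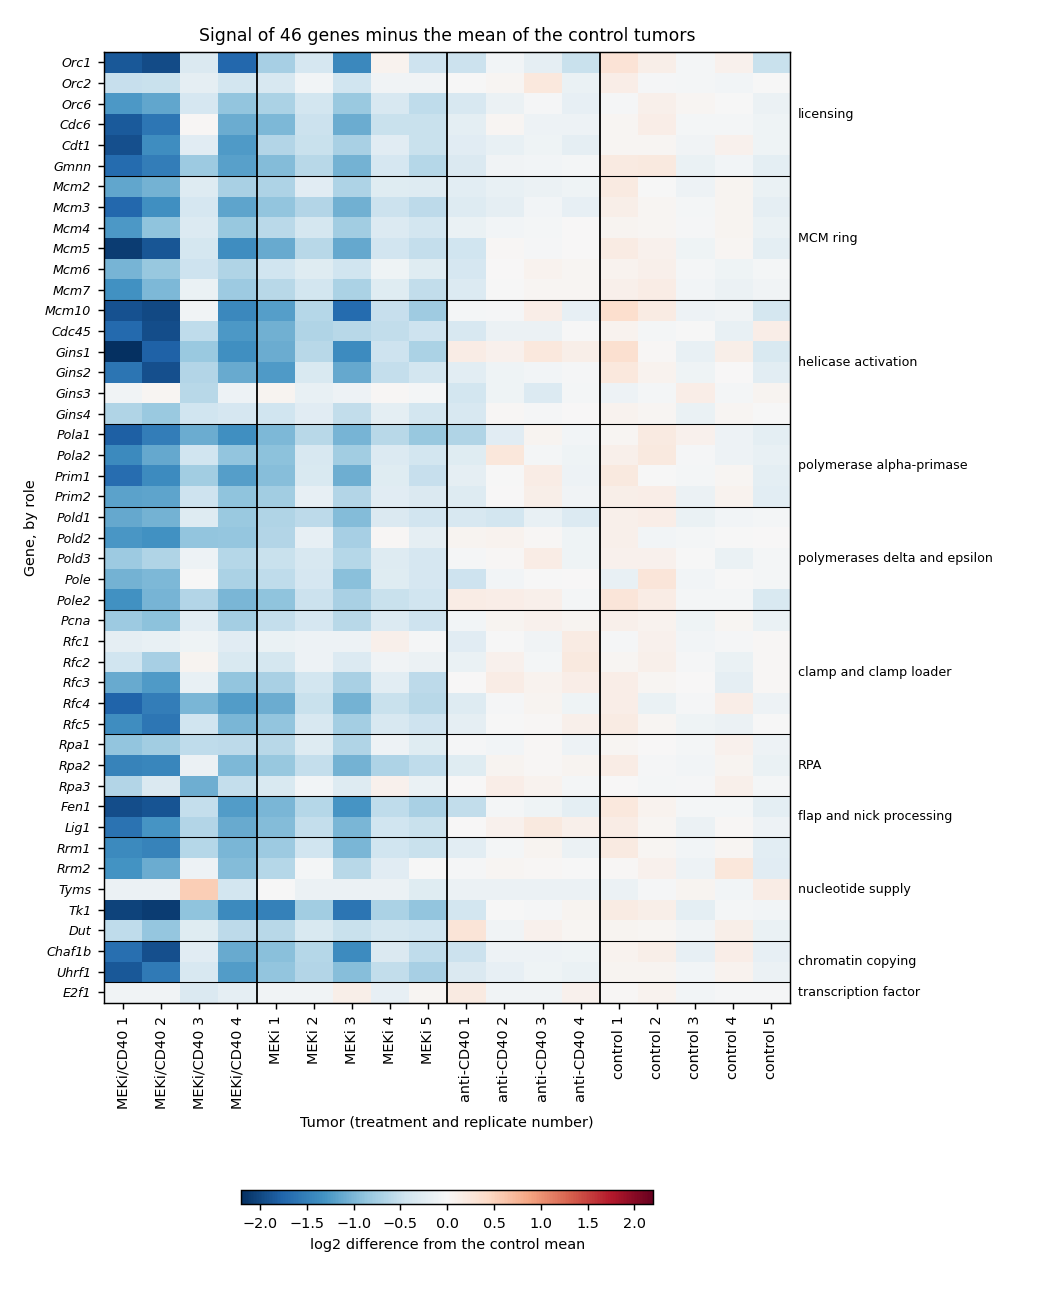
Log2 signal of 46 genes (vertical axis, by role) in 18 tumors (horizontal axis) minus the mean of the control tumors, with blue for lower and red for higher. The columns of MEKi/CD40 tumors 1, 2 and 4 are the bluest, and MEKi/CD40 tumor 3 resembles the MEKi columns, with a median of -0.37.

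The promoters of these genes held E2F-type letters in a larger share than promoters at large, given here as a description. RefSeq promoter windows (mouse build GRCm38.p6, 250 bases before to 50 after the start) matched 39 of the 47 genes with 46 windows. One of the octamers TTTCCCGC, TTTGGCGC, TTTCGCGC or TTTGCCGC, on either strand, lay in 15 of 46 windows (32.6%), beside 744 of 32851 windows of all genes (2.26%). The letters CCAAT lay in 27 of 46 windows (58.7%, beside 37.4%) and the cell cycle homology element TTTGAA in 5 of 46 (10.9%, beside 17.9%). The 15 genes with an octamer were Orc1, Cdc6, Cdt1, Mcm3, Mcm5, Mcm6, Mcm7, Gins3, Pola1, Pold1, Pold3, Pole2, Rfc3, Lig1 and Uhrf1, and none of the windows of the RPA genes, the nucleotide supply genes or E2f1 held one. Of these 15 genes 13 fell with MEKi/CD40 against control (median difference -1.13), and of 23 measured genes with a window but no octamer 18 fell (median -0.96). The windows below belong to the 4 octamer genes with the smallest p in that comparison and to Gins3, the one with the largest p, with octamers in capitals.
Pola1: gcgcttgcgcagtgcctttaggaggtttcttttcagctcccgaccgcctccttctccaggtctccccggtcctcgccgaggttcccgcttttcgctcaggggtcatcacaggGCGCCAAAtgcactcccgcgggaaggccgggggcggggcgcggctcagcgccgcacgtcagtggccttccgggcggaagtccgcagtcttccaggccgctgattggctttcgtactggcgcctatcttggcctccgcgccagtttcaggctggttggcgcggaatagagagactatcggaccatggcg
Mcm6: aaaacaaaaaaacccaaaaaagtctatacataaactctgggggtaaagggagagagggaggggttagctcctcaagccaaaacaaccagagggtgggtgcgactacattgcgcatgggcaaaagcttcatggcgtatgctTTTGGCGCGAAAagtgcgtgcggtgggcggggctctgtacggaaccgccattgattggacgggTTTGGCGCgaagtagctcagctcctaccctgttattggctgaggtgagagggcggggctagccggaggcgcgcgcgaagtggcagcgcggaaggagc
Lig1: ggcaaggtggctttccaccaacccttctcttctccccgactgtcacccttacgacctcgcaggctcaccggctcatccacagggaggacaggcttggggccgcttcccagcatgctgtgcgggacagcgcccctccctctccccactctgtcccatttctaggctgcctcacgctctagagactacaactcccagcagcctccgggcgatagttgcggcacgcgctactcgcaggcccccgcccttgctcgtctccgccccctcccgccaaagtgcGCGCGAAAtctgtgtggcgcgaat
Pole2: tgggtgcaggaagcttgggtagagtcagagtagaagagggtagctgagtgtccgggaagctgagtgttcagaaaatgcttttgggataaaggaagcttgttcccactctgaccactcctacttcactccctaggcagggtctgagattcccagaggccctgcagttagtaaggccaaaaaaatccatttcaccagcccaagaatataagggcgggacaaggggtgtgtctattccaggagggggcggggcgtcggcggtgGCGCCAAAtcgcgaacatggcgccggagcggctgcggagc
Gins3: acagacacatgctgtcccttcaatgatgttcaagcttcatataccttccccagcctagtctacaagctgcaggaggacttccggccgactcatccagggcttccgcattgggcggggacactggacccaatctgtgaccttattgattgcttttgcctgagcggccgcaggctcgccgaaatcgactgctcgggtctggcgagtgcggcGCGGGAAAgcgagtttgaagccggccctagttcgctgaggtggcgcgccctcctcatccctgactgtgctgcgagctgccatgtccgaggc
The window of Pola1 is chrX:93632106-93632405, minus strand, and its octamer begins at -138 from the start. That of Mcm6 (chr1:128359656-128359955, minus strand) holds 3, at -110, -106 and -47, of which the first and second overlap on opposite strands. The octamer begins at 27 in the Lig1 window (chr7:13278576-13278875, plus strand), at 11 in that of Pole2 (chr12:69228141-69228440, minus strand) and at -41 in that of Gins3 (chr8:95633309-95633608, plus strand). A match of letters is a description of these windows and does not show that a factor binds there.

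Of the 6 licensing genes, 5 fell with MEKi/CD40 against control and 4 with MEKi. Gmnn, which encodes the licensing inhibitor geminin (1417506_at), read 8.48, 8.65, 9.38 and 8.97 in MEKi/CD40 tumors, 9.22, 9.57, 9.13, 9.80 and 9.54 in MEKi tumors, 9.86, 10.09, 10.12 and 10.13 in anti-CD40 tumors and 10.37, 10.39, 10.03, 10.12 and 9.95 in control tumors. Every MEKi/CD40 and MEKi tumor lay below every control. Gmnn fell by 1.30 ± 0.20 (SE) with MEKi/CD40 (limma adjusted p = 0.00539) and by 0.72 ± 0.15 with MEKi (adjusted p = 0.0257). Cdc6, the loader of the Mcm ring (1417019_a_at), read 7.77, 8.04, 9.65 and 8.53 in MEKi/CD40 tumors, 8.63, 9.15, 8.54, 9.13 and 9.13 in MEKi tumors, 9.41, 9.66, 9.52 and 9.51 in anti-CD40 tumors and 9.66, 9.77, 9.58, 9.58 and 9.53 in control tumors. MEKi/CD40 tumor 3 lay within the control range and the other 3 lay below it, as did all 5 MEKi tumors. Its difference was -1.13 ± 0.36 with MEKi/CD40 (adjusted p = 0.0838), and it fell by 0.71 ± 0.14 with MEKi (adjusted p = 0.0225). Orc1, the ATPase subunit of the origin recognition complex (1422663_at), read 4.38, 4.28, 5.93 and 4.52 in MEKi/CD40 tumors, 5.52, 5.87, 4.82, 6.32 and 5.79 in MEKi tumors, 5.78, 6.19, 6.05 and 5.76 in anti-CD40 tumors and 6.55, 6.38, 6.21, 6.34 and 5.75 in control tumors. Here too tumor 3 was high, inside the control range. Orc1 fell by 1.47 ± 0.36 with MEKi/CD40 (adjusted p = 0.0350) and differed by -0.58 ± 0.28 with MEKi (adjusted p = 0.288). Cdt1, the partner of Cdc6 in loading (1424143_a_at), read 9.51, 10.08, 11.20 and 10.21 in MEKi/CD40 tumors, 10.81, 10.97, 10.74, 11.20 and 10.97 in MEKi tumors, 11.20, 11.29, 11.36 and 11.26 in anti-CD40 tumors and 11.50, 11.49, 11.37, 11.54 and 11.36 in control tumors. All MEKi/CD40 and MEKi tumors lay below every control, and 3 of 4 anti-CD40 tumors did so as well. Cdt1 fell by 1.20 ± 0.30 with MEKi/CD40 (adjusted p = 0.0376) and by 0.51 ± 0.09 with MEKi (adjusted p = 0.0134). Orc2 and Orc6, further subunits of the complex, fell by 0.40 ± 0.08 and 0.91 ± 0.17 with MEKi/CD40. With MEKi Orc6 fell by 0.56 ± 0.09, and Orc2 was not called.

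All 6 genes of the Mcm2 to Mcm7 ring, the core of the replicative helicase, fell with MEKi/CD40, by 0.74 to 1.43, and 5 fell with MEKi. Mcm6 (1416251_at) read 11.42, 11.61, 11.99 and 11.78 in MEKi/CD40 tumors, 12.00, 12.18, 12.00, 12.35 and 12.18 in MEKi tumors, 12.07, 12.44, 12.51 and 12.48 in anti-CD40 tumors and 12.51, 12.55, 12.39, 12.35 and 12.39 in control tumors. With Pola1 and Pold2, it was one of 3 genes whose MEKi/CD40 tumors all lay below every MEKi tumor. That share of the 46 genes was near the 6.68% of all genes, and the 3 were not called in that comparison. Mcm6 fell by 0.74 ± 0.11 with MEKi/CD40 (adjusted p = 0.00568) and by 0.30 ± 0.07 with MEKi (adjusted p = 0.0491). Mcm7 (1438320_s_at), the member of the ring with the largest p, read 11.22, 11.55, 12.39 and 11.75 in MEKi/CD40 tumors, 11.94, 12.14, 11.84, 12.28 and 12.01 in MEKi tumors, 12.25, 12.54, 12.58 and 12.59 in anti-CD40 tumors and 12.65, 12.70, 12.49, 12.42 and 12.46 in control tumors. Both inhibitor groups lay below every control, with MEKi/CD40 tumor 3 at 12.39 close to the lowest control. The fall was 0.82 ± 0.22 with MEKi/CD40 (adjusted p = 0.0472) and 0.50 ± 0.09 with MEKi (adjusted p = 0.0181). Mcm5 (1415945_at) read 8.11, 8.30, 9.80 and 8.82 in MEKi/CD40 tumors, 9.08, 9.58, 9.06, 9.77 and 9.66 in MEKi tumors, 9.75, 10.21, 10.16 and 10.20 in anti-CD40 tumors and 10.37, 10.28, 10.10, 10.23 and 9.97 in control tumors. MEKi/CD40 tumors 1, 2 and 4 lay below every MEKi tumor, and tumor 3 lay above every MEKi tumor. Mcm5 fell by 1.43 ± 0.33 with MEKi/CD40 (adjusted p = 0.0276) and by 0.76 ± 0.16 with MEKi (adjusted p = 0.0287). Mcm2, Mcm3 and Mcm4 fell by 0.79 ± 0.18, 1.15 ± 0.25 and 0.82 ± 0.17 with MEKi/CD40. With MEKi the falls of Mcm3 and Mcm4 were called, and Mcm2 differed by -0.43 ± 0.12 (adjusted p = 0.0613).

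Of the 6 helicase activation genes, 4 fell with MEKi/CD40 and 3 with MEKi, and Gins3 stood out from the other GINS subunits. Gins4 (1417913_at) read 8.84, 8.70, 9.08 and 9.14 in MEKi/CD40 tumors, 9.07, 9.26, 8.97, 9.30 and 9.10 in MEKi tumors, 9.16, 9.54, 9.49 and 9.51 in anti-CD40 tumors and 9.58, 9.55, 9.36, 9.56 and 9.50 in control tumors. Both inhibitor groups lay below every control. Its fall was 0.57 ± 0.10 with MEKi/CD40 (adjusted p = 0.00916) and 0.37 ± 0.07 with MEKi (adjusted p = 0.0213). Gins3 (1429149_at) read 7.22, 7.34, 6.69 and 7.18 in MEKi/CD40 tumors, 7.36, 7.13, 7.18, 7.33 and 7.26 in MEKi tumors, 6.90, 7.20, 7.00 and 7.26 in anti-CD40 tumors and 7.18, 7.25, 7.45, 7.26 and 7.36 in control tumors. All 4 groups overlapped, and MEKi/CD40 tumor 3 was the lowest of all. The difference was -0.19 ± 0.13 with MEKi/CD40 (adjusted p = 0.512) and -0.05 ± 0.06 with MEKi (adjusted p = 0.781). Gins1 and Gins2 fell by 1.53 ± 0.28 and 1.32 ± 0.26 with MEKi/CD40, and all 4 MEKi/CD40 tumors lay below every control for both. Cdc45, which joins GINS on the ring (1416575_at), read 6.85, 6.60, 7.99 and 7.29 in MEKi/CD40 tumors, 7.50, 7.90, 7.94, 8.02 and 8.10 in MEKi tumors, 8.21, 8.42, 8.43 and 8.55 in anti-CD40 tumors and 8.63, 8.52, 8.54, 8.39 and 8.70 in control tumors. Its MEKi/CD40 and MEKi tumors were all below the controls. Cdc45 fell by 1.37 ± 0.27 with MEKi/CD40 (adjusted p = 0.0143) and by 0.66 ± 0.11 with MEKi (adjusted p = 0.0146). Mcm10, needed to start the helicase (1433408_a_at), read 6.35, 6.29, 8.20 and 6.86 in MEKi/CD40 tumors, 7.06, 7.65, 6.58, 7.76 and 7.49 in MEKi tumors, 8.23, 8.24, 8.41 and 8.09 in anti-CD40 tumors and 8.65, 8.46, 8.16, 8.20 and 7.89 in control tumors. MEKi/CD40 tumors spread over almost 2 log2 units, the upper one inside the control range. Its differences of -1.35 ± 0.41 with MEKi/CD40 (adjusted p = 0.0703) and -0.96 ± 0.25 with MEKi (adjusted p = 0.0522) missed the threshold.

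All 4 genes of the polymerase alpha-primase complex fell with MEKi/CD40, and Pola1 and Pola2 fell with MEKi. Pola1, the catalytic subunit of polymerase alpha (1419397_at), had the smallest p of the 46 genes with MEKi/CD40 against control. Its signals were 8.21, 8.48, 8.92 and 8.66 in MEKi/CD40 tumors, 9.02, 9.40, 8.98, 9.40 and 9.18 in MEKi tumors, 9.34, 9.75, 10.06 and 9.95 in anti-CD40 tumors and 10.05, 10.20, 10.10, 9.89 and 9.79 in control tumors. The MEKi/CD40 tumors lay below every MEKi tumor, and the MEKi tumors below every control. Pola1 fell by 1.44 ± 0.15 with MEKi/CD40 (2.71-fold, adjusted p = 0.00173) and by 0.81 ± 0.11 with MEKi (1.75-fold, adjusted p = 0.00836). Pola2, the regulatory subunit (1448369_at), read 7.72, 7.99, 8.68 and 8.25 in MEKi/CD40 tumors, 8.22, 8.76, 8.36, 8.82 and 8.71 in MEKi tumors, 8.86, 9.37, 9.07 and 9.03 in anti-CD40 tumors and 9.23, 9.33, 9.09, 9.00 and 8.95 in control tumors. Its groups were separate from control in both inhibitor arms. Pola2 fell by 0.96 ± 0.19 with MEKi/CD40 (adjusted p = 0.0157) and by 0.55 ± 0.14 with MEKi (adjusted p = 0.0471). Prim2, the large primase subunit (1418036_at), read 7.61, 7.63, 8.32 and 7.89 in MEKi/CD40 tumors, 8.01, 8.60, 8.14, 8.54 and 8.46 in MEKi tumors, 8.49, 8.79, 8.91 and 8.71 in anti-CD40 tumors and 8.91, 8.93, 8.66, 8.86 and 8.55 in control tumors. MEKi tumor 2 reached into the control range and no MEKi/CD40 tumor did. The fall of Prim2 with MEKi/CD40 was 0.92 ± 0.16 (adjusted p = 0.0103), and the difference with MEKi was -0.43 ± 0.14 (adjusted p = 0.0950). Prim1, the catalytic primase subunit, fell by 1.26 ± 0.18 with MEKi/CD40 (adjusted p = 0.00446).

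**Figure D4:**
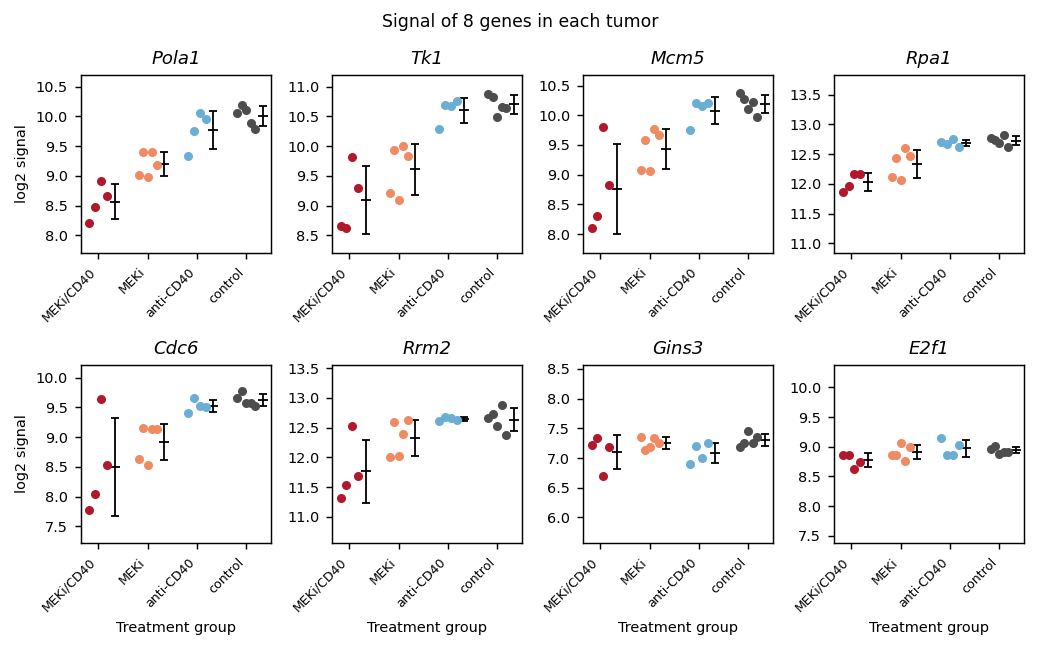
Log2 signal (vertical axes, each spanning 3 units) of 8 genes in MEKi/CD40, MEKi, anti-CD40 and control tumors (horizontal axes). Points are tumors, with mean and SD beside them, and Gins3 overlaps between all groups while Pola1 does not overlap between MEKi/CD40, MEKi and control.

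Of the 5 measured genes of polymerases delta and epsilon, 4 fell with MEKi/CD40 and 3 with MEKi. Pold2, an accessory subunit of polymerase delta (1448277_at), read 9.85, 9.81, 10.26 and 10.29 in MEKi/CD40 tumors, 10.50, 10.96, 10.40, 11.17 and 10.93 in MEKi tumors, 11.20, 11.22, 11.16 and 11.04 in anti-CD40 tumors and 11.25, 11.07, 11.09, 11.13 and 11.14 in control tumors. The MEKi/CD40 tumors were all below the MEKi range, and the highest MEKi tumor lay inside the control range. Pold2 fell by 1.08 ± 0.12 with MEKi/CD40 (adjusted p = 0.00178), against -0.34 ± 0.15 with MEKi (adjusted p = 0.224). Pole, the catalytic subunit of polymerase epsilon (1448650_a_at), read 7.81, 7.86, 8.84 and 8.16 in MEKi/CD40 tumors, 8.29, 8.49, 7.94, 8.59 and 8.48 in MEKi tumors, 8.40, 8.79, 8.84 and 8.86 in anti-CD40 tumors and 8.69, 9.12, 8.79, 8.85 and 8.81 in control tumors. Of the MEKi/CD40 tumors, number 3 overlapped the controls. Its difference was -0.68 ± 0.22 with MEKi/CD40 (adjusted p = 0.0841) and -0.49 ± 0.13 with MEKi (adjusted p = 0.0595). Pole2, the second subunit of that enzyme (1427094_at), read 8.17, 8.47, 8.85 and 8.50 in MEKi/CD40 tumors, 8.62, 9.02, 8.79, 9.00 and 9.06 in MEKi tumors, 9.66, 9.65, 9.61 and 9.46 in anti-CD40 tumors and 9.76, 9.66, 9.45, 9.45 and 9.17 in control tumors. Both inhibitor groups stood below all anti-CD40 and control tumors. Pole2 fell by 1.00 ± 0.16 with MEKi/CD40 (adjusted p = 0.00752) and by 0.60 ± 0.13 with MEKi (adjusted p = 0.0294). Pold1, the catalytic subunit of polymerase delta (1448187_at), read 6.19, 6.26, 7.03 and 6.50 in MEKi/CD40 tumors, 6.65, 6.73, 6.35, 6.99 and 6.88 in MEKi tumors, 6.96, 6.91, 7.14 and 7.00 in anti-CD40 tumors and 7.42, 7.45, 7.16, 7.25 and 7.26 in control tumors. Unlike any other of the 46 genes, its anti-CD40 tumors all lay below every control. Pold1 fell by 0.81 ± 0.17 with MEKi/CD40 (adjusted p = 0.0203) and by 0.59 ± 0.12 with MEKi (adjusted p = 0.0250), and with anti-CD40 it differed by -0.31 ± 0.07 (adjusted p = 0.620). Pold3, another accessory subunit, fell by 0.55 ± 0.14 with MEKi/CD40 and by 0.42 ± 0.07 with MEKi.

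Of the sliding clamp Pcna and the 5 subunits of its loader, 5 fell with MEKi/CD40 and 4 with MEKi. Pcna (1417947_at), the brightest of the 46 probe sets, read 12.91, 12.81, 13.47 and 12.96 in MEKi/CD40 tumors, 13.18, 13.33, 13.09, 13.40 and 13.25 in MEKi tumors, 13.65, 13.76, 13.81 and 13.77 in anti-CD40 tumors and 13.82, 13.78, 13.62, 13.75 and 13.57 in control tumors. Every inhibitor-treated tumor lay below every anti-CD40 and control tumor. Pcna fell by 0.67 ± 0.14 with MEKi/CD40 (adjusted p = 0.0171) and by 0.46 ± 0.07 with MEKi (adjusted p = 0.0112). Rfc4 (1424321_at), a small loader subunit, read 8.49, 8.73, 9.24 and 9.03 in MEKi/CD40 tumors, 9.16, 9.76, 9.21, 9.77 and 9.64 in MEKi tumors, 9.97, 10.23, 10.32 and 10.16 in anti-CD40 tumors and 10.39, 10.11, 10.23, 10.39 and 10.14 in control tumors. MEKi/CD40 tumors 1, 2 and 4 were below the whole MEKi range and tumor 3 was inside it. Rfc4 fell by 1.38 ± 0.16 with MEKi/CD40 (adjusted p = 0.00216) and by 0.74 ± 0.14 with MEKi (adjusted p = 0.0211). Rfc1, the large loader subunit (1418342_at), read 9.83, 9.87, 9.94 and 9.78 in MEKi/CD40 tumors, 9.88, 9.92, 9.92, 10.14 and 10.00 in MEKi tumors, 9.79, 10.02, 9.96 and 10.21 in anti-CD40 tumors and 10.00, 10.12, 9.98, 10.01 and 10.05 in control tumors. Its range over all 18 tumors was under 0.5 log2 units. Rfc1 fell by 0.18 ± 0.04 with MEKi/CD40 (adjusted p = 0.0244), the smallest fall that was called, and other Rfc1 probe sets did not share the call, as given below. Rfc2 (1417503_at) read 9.66, 9.37, 10.17 and 9.77 in MEKi/CD40 tumors, 9.71, 10.00, 9.80, 10.03 and 9.97 in MEKi tumors, 9.96, 10.19, 10.06 and 10.32 in anti-CD40 tumors and 10.15, 10.21, 10.07, 9.96 and 10.13 in control tumors. As in Pole, MEKi/CD40 tumor 3 overlapped the controls, as did 3 MEKi tumors. The difference was -0.36 ± 0.15 with MEKi/CD40 (adjusted p = 0.182) and -0.20 ± 0.07 with MEKi (adjusted p = 0.150). Rfc3 and Rfc5 fell by 0.84 ± 0.22 and 1.10 ± 0.22 with MEKi/CD40 and by 0.53 ± 0.10 and 0.56 ± 0.12 with MEKi.

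Of the 3 subunits of replication protein A, which coats single-stranded DNA, Rpa1 and Rpa3 fell with MEKi/CD40 and Rpa2 with MEKi. Rpa1 (1437309_a_at) read 11.86, 11.97, 12.17 and 12.16 in MEKi/CD40 tumors, 12.12, 12.44, 12.06, 12.61 and 12.47 in MEKi tumors, 12.70, 12.67, 12.75 and 12.62 in anti-CD40 tumors and 12.78, 12.74, 12.69, 12.82 and 12.62 in control tumors. No inhibitor-treated tumor reached the anti-CD40 or control range. Rpa1 fell by 0.69 ± 0.08 with MEKi/CD40 (adjusted p = 0.00191), and with MEKi it differed by -0.39 ± 0.11 (adjusted p = 0.0678). Rpa2 (1454011_a_at) read 8.19, 8.22, 9.53 and 8.67 in MEKi/CD40 tumors, 8.82, 9.13, 8.62, 8.98 and 9.10 in MEKi tumors, 9.39, 9.72, 9.67 and 9.72 in anti-CD40 tumors and 9.82, 9.63, 9.59, 9.71 and 9.51 in control tumors. MEKi/CD40 tumor 3 was inside the control range and above every MEKi tumor. Its difference with MEKi/CD40 was -0.9995 ± 0.27 (adjusted p = 0.0504), and it fell by 0.72 ± 0.11 with MEKi (adjusted p = 0.00968). Rpa3 (1448938_at) read 10.34, 10.67, 9.91 and 10.47 in MEKi/CD40 tumors, 10.65, 10.93, 10.71, 11.09 and 10.84 in MEKi tumors, 11.00, 11.13, 11.06 and 10.94 in anti-CD40 tumors and 11.00, 10.94, 10.96, 11.10 and 10.94 in control tumors. Here MEKi/CD40 tumor 3 was the lowest tumor of all, and 1 MEKi tumor reached into the control range. Rpa3 fell by 0.64 ± 0.14 with MEKi/CD40 (adjusted p = 0.0229), against -0.14 ± 0.08 with MEKi (adjusted p = 0.416).

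Fen1, which removes the flaps left on the lagging strand, and Lig1, which seals the nicks, both fell in both inhibitor groups. Fen1 (1421731_a_at) read 8.67, 8.72, 10.09 and 9.39 in MEKi/CD40 tumors, 9.61, 10.00, 9.32, 10.06 and 9.91 in MEKi tumors, 10.07, 10.58, 10.52 and 10.41 in anti-CD40 tumors and 10.86, 10.69, 10.57, 10.57 and 10.41 in control tumors. Lig1 (1416641_at) read 8.93, 9.25, 9.92 and 9.45 in MEKi/CD40 tumors, 9.60, 10.03, 9.55, 10.11 and 10.07 in MEKi tumors, 10.57, 10.65, 10.77 and 10.67 in anti-CD40 tumors and 10.72, 10.60, 10.43, 10.59 and 10.44 in control tumors. For both genes, every inhibitor-treated tumor was below every control, and for Lig1 also below every anti-CD40 tumor. Fen1 fell by 1.40 ± 0.30 with MEKi/CD40 (adjusted p = 0.0197) and by 0.84 ± 0.15 with MEKi (adjusted p = 0.0178). Lig1 fell by 1.17 ± 0.19 with MEKi/CD40 (adjusted p = 0.00695) and by 0.68 ± 0.13 with MEKi (adjusted p = 0.0205).

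Among the 5 nucleotide supply genes, Rrm1, Tk1 and Dut fell with MEKi/CD40 and with MEKi. Tk1, the cytosolic thymidine kinase of the salvage route (1416258_at), had the largest fitted fall of the 46 genes in both comparisons with control. It read 8.66, 8.62, 9.81 and 9.30 in MEKi/CD40 tumors, 9.21, 9.93, 9.09, 10.00 and 9.83 in MEKi tumors, 10.29, 10.69, 10.67 and 10.76 in anti-CD40 tumors and 10.88, 10.83, 10.49, 10.66 and 10.65 in control tumors. MEKi/CD40 tumors 1 and 2 were the lowest, and no inhibitor-treated tumor reached the range of the other groups. Tk1 fell by 1.60 ± 0.26 with MEKi/CD40 (3.04-fold, adjusted p = 0.00678) and by 1.09 ± 0.20 with MEKi (2.13-fold, adjusted p = 0.0177). Rrm1, the large subunit of ribonucleotide reductase (1415878_at), read 9.82, 9.75, 10.60 and 10.22 in MEKi/CD40 tumors, 10.42, 10.79, 10.22, 10.79 and 10.73 in MEKi tumors, 10.99, 11.18, 11.28 and 11.10 in anti-CD40 tumors and 11.43, 11.26, 11.17, 11.26 and 11.00 in control tumors. It was below every control in all inhibitor-treated tumors. Rrm1 fell by 1.13 ± 0.19 with MEKi/CD40 (adjusted p = 0.00766) and by 0.63 ± 0.13 with MEKi (adjusted p = 0.0265). Rrm2, the small subunit (1448226_at), read 11.32, 11.54, 12.53 and 11.68 in MEKi/CD40 tumors, 12.00, 12.59, 12.03, 12.39 and 12.63 in MEKi tumors, 12.61, 12.68, 12.66 and 12.63 in anti-CD40 tumors and 12.66, 12.73, 12.52, 12.88 and 12.38 in control tumors. MEKi/CD40 tumor 3 and 3 MEKi tumors lay inside the control range. Its difference was -0.87 ± 0.25 with MEKi/CD40 (adjusted p = 0.0570) and -0.31 ± 0.16 with MEKi (adjusted p = 0.335). Dut, which hydrolyzes dUTP (1419270_a_at), read 10.94, 10.64, 11.23 and 10.93 in MEKi/CD40 tumors, 10.89, 11.16, 11.00, 11.11 and 11.06 in MEKi tumors, 11.78, 11.42, 11.59 and 11.54 in anti-CD40 tumors and 11.56, 11.54, 11.42, 11.62 and 11.35 in control tumors. Both inhibitor groups were separate from both others, and overlapped each other. Dut fell by 0.56 ± 0.12 with MEKi/CD40 (adjusted p = 0.0180) and by 0.45 ± 0.07 with MEKi (adjusted p = 0.00959). Tyms, thymidylate synthase (1438690_at), read 2.63, 2.63, 3.31 and 2.36 in MEKi/CD40 tumors, 2.76, 2.63, 2.63, 2.63 and 2.50 in MEKi tumors, 2.63, 2.63, 2.63 and 2.63 in anti-CD40 tumors and 2.63, 2.74, 2.82, 2.71 and 2.93 in control tumors. This probe set stayed near the lowest deposited value and repeated 2.63 on many arrays, so it gave no usable measure of the gene. Its difference with MEKi/CD40 was -0.03 ± 0.18 (adjusted p = 1.00).

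Chaf1b and Uhrf1, which restore chromatin behind the fork, fell in both inhibitor groups. Uhrf1, a reader of half-methylated DNA that brings in the maintenance methyltransferase (1415810_at), had the smallest p of the 46 genes with MEKi. It read 9.57, 9.88, 11.08 and 10.21 in MEKi/CD40 tumors, 10.57, 10.78, 10.50, 10.89 and 10.71 in MEKi tumors, 11.12, 11.26, 11.34 and 11.29 in anti-CD40 tumors and 11.49, 11.49, 11.37, 11.51 and 11.30 in control tumors. All inhibitor-treated tumors lay below all others. Uhrf1 fell by 1.25 ± 0.28 with MEKi/CD40 (adjusted p = 0.0250) and by 0.74 ± 0.08 with MEKi (adjusted p = 0.00427). Chaf1b, the middle subunit of chromatin assembly factor 1 (1423877_at), read 6.73, 6.45, 8.13 and 7.27 in MEKi/CD40 tumors, 7.47, 7.75, 7.00, 8.06 and 7.82 in MEKi tumors, 7.91, 8.27, 8.27 and 8.28 in anti-CD40 tumors and 8.46, 8.51, 8.21, 8.52 and 8.21 in control tumors. MEKi/CD40 tumor 3 at 8.13 was just below the lowest controls, and anti-CD40 tumor 1 was below them too. Chaf1b fell by 1.24 ± 0.33 with MEKi/CD40 (adjusted p = 0.0440) and by 0.76 ± 0.19 with MEKi (adjusted p = 0.0478).

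E2f1, a transcription factor that drives many of these genes at the start of S phase, differed little between groups. Its probe set (1431875_a_at) read 8.86, 8.86, 8.62 and 8.75 in MEKi/CD40 tumors, 8.86, 8.86, 9.07, 8.76 and 8.99 in MEKi tumors, 9.14, 8.86, 8.86 and 9.03 in anti-CD40 tumors and 8.96, 9.02, 8.88, 8.92 and 8.92 in control tumors. The value 8.86 stood on 6 arrays of 3 groups, so small differences in this probe set are poorly resolved. The MEKi/CD40 tumors all lay below every control. Its difference was -0.17 ± 0.06 with MEKi/CD40 (adjusted p = 0.0952) and -0.03 ± 0.06 with MEKi (adjusted p = 0.934).

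The comparison of MEKi/CD40 with MEKi asked what the antibody added to the inhibitor. Here 0 of 46 genes were called (background 1.85% of all genes lower and 0.978% higher), 10 of 46 (21.7%) had an unadjusted p under 0.05 in limma, near the 20.0% of all genes, and the median difference was -0.42. With all 18 arrays in 1 fit 7 were called lower (background 7.23%), and with dim probe sets left out 3 were (background 9.25%). MEKi/CD40 lay wholly below MEKi in 3 genes (background 6.68%), a share of the 46 near that of all genes. The 3 smallest p-values belonged to Pola1 (-0.63 ± 0.16, adjusted p = 0.0938), Pold2 (-0.74 ± 0.20, adjusted p = 0.101) and Mcm6 (-0.44 ± 0.13, adjusted p = 0.123). Without MEKi/CD40 tumor 3 again 0 were called (background 1.32%), while 39 had an unadjusted p under 0.05 (22.3% of all genes did) and the median difference was -0.61. That tumor was picked by these same genes, so this count is not separate evidence. Without MEKi/CD40 tumor 1, 2 or 4, 5, 5 and 6 of 46 had an unadjusted p under 0.05 in limma (10.9%, 10.9% and 13.0%). Of all genes 17.4%, 18.2% and 18.9% did. The 2-by-2 model of all 18 arrays asked whether the effect of both drugs differed from the sum of their single effects. It called 0 of 46 genes (background 1.50% lower and 0.973% higher), with 8 of 46 (17.4%) at an unadjusted p under 0.05, near the 15.9% of all genes, and a median interaction of -0.35. Pold2 (-0.76 ± 0.20, adjusted p = 0.0651), Rpa3 (-0.54 ± 0.17, adjusted p = 0.118) and Pole2 (-0.50 ± 0.19, adjusted p = 0.221) had the smallest p. Without MEKi/CD40 tumor 3 the interaction was called lower for 6 genes (background 1.84%), Cdt1, Rfc3, Pcna, Cdc45, Rrm2 and Lig1. Without MEKi/CD40 tumor 1, 2 or 4 it was called for 0, 0 and 1 genes, so the 6 calls rest on the choice of tumor 3.

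Set against anti-CD40 alone, 20 of 46 genes fell and 0 rose with MEKi/CD40 (background 9.06% lower and 5.84% higher), with a median difference of -0.95, and 30 did not overlap (background 13.4%). Pold2 (1.10 ± 0.13 lower, adjusted p = 0.00553), Rpa1 (0.65 ± 0.08 lower, adjusted p = 0.00580) and Pole2 (1.10 ± 0.14 lower, adjusted p = 0.00682) had the smallest p in limma. Without MEKi/CD40 tumor 3, 40 of 46 fell (background 10.9%), and leaving out any other single tumor gave 6 to 13 (lowest without anti-CD40 tumor 2 or 3). Without the 3 arrays of highest adipocyte signal 0 did (background 0.599%), and the median was -0.75, with only MEKi/CD40 tumors 1 and 3 left in that group. MEKi against anti-CD40 gave 10 genes that fell and 0 that rose (background 3.09% lower and 4.08% higher) and a median of -0.50, led by Pcna (0.50 ± 0.07 lower, adjusted p = 0.0181), Pole2 (0.70 ± 0.10 lower, adjusted p = 0.0201) and Dut (0.54 ± 0.08 lower, adjusted p = 0.0211). Groups did not overlap in 25 genes (background 6.98%). In this comparison 0 genes were called without anti-CD40 tumor 2 (background 0.308%) or 3 (0.451%), with the number series as a block (0.170%) or with a trended robust variance (0.0824%), and 0 of the 10 were called whichever tumor was left out. These comparisons share arrays with those against control, so their counts are not separate evidence. Anti-CD40 against control had its smallest p for Pold1, Cdt1 (-0.17 ± 0.05, adjusted p = 0.698) and Uhrf1 (-0.18 ± 0.06, adjusted p = 0.802), and 1 gene, Pold1, did not overlap (background 1.02%). For the 2 comparisons of the inhibitor groups with control, 35 genes did not overlap with MEKi/CD40 (background 13.0%) and 34 with MEKi (background 6.02%).

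Other probe sets of the same genes gave a check on these readings. The 46 genes had 101 single-symbol probe sets, 46 that stood for a gene and 55 others. Of 34 others with a mean signal of at least 5, 26 fell with MEKi/CD40 and 23 with MEKi, with 0 higher. Of 21 dimmer ones, 2 fell in each comparison, and most lay near the lowest value. Over all 45037 probe sets, 4219 were lower with MEKi/CD40 and 1726 with MEKi. Over the 19042 above the dim-signal filter, adjusted among themselves, 5271 and 3171 were lower. A second Uhrf1 set fell by 1.92 ± 0.40 with MEKi/CD40 (adjusted p = 0.0175) and a second Rrm1 set by 1.70 ± 0.19 (adjusted p = 0.00192). Rrm2, not called by the set that stood for it, fell by 1.32 ± 0.32 in another (adjusted p = 0.0331). It differed by -0.73 ± 0.23 in the third (adjusted p = 0.0797), a brighter set with a cross-hybridisation suffix. The 3 Rfc1 sets differed by -0.18 ± 0.04 (called), -0.17 ± 0.06 (adjusted p = 0.0861) and 0.10 ± 0.25 (adjusted p = 1.00). A second E2f1 set differed by -0.08 ± 0.05 (adjusted p = 0.394), and a second Gins3 set by -0.29 ± 0.10 (adjusted p = 0.111). All 4 Tyms sets averaged under 3.

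**Figure D5:**
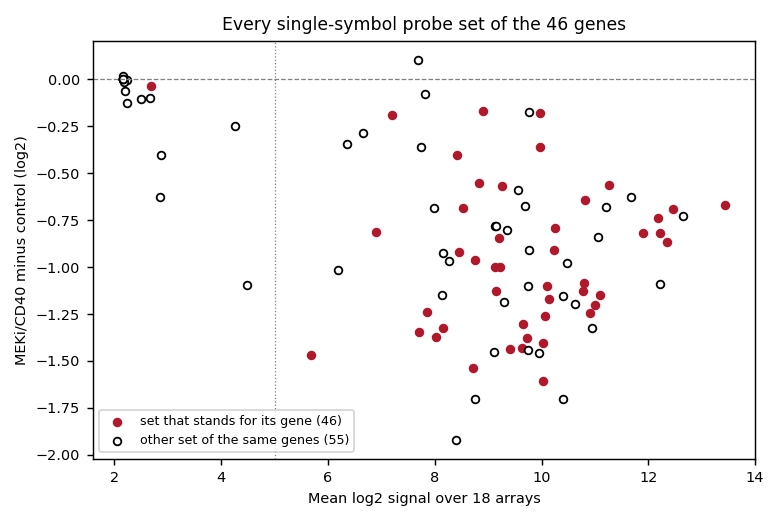
Difference between MEKi/CD40 and control (vertical axis, log2) of 101 probe sets of the 46 genes against their mean signal over 18 arrays (horizontal axis, log2). Filled points stand for a gene and open points are its other sets, and sets near the lowest value of 2.16 lie close to 0.

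Further genes of the same processes were lower too. From a second list of 86 replication, nucleotide and E2F genes, 83 were measured, of which 52 fell and 1 rose with MEKi/CD40 against control (median -0.66, beside 12.0% of all genes lower and 7.65% higher), and 29 fell and 2 rose with MEKi (median -0.36, beside 5.09% lower and 6.08% higher). With MEKi/CD40, 8 of 9 further chromatin copying genes, 8 of 13 origin and helicase genes, 11 of 19 fork and polymerase genes, 15 of 26 nucleotide genes and 10 of 16 E2F and pocket protein genes fell. Paics, an enzyme of purine synthesis, had the smallest p and fell by 0.45 ± 0.03 (adjusted p = 0.000528). It read 12.84, 12.85, 12.93 and 12.88 in MEKi/CD40 tumors, 12.99, 13.24, 13.18, 13.20 and 13.13 in MEKi tumors, 13.27, 13.40, 13.40 and 13.44 in anti-CD40 tumors and 13.40, 13.32, 13.32, 13.27 and 13.30 in control tumors. The MEKi/CD40 tumors were all below the MEKi tumors, and those below every control. Prps2, which makes phosphoribosyl pyrophosphate, fell by 0.45 ± 0.04 (adjusted p = 0.00153), and Dbf4, the activating subunit of the Cdc7 kinase, by 1.28 ± 0.15 (adjusted p = 0.00218). Tfdp1, the dimer partner of E2F factors, and the kinase Cdk2 fell by 0.51 ± 0.05 and 0.60 ± 0.06 (adjusted p = 0.00155 and 0.00156). Against the majority, Cmpk1, a pyrimidine nucleotide kinase, rose by 0.12 ± 0.03 with MEKi/CD40 (adjusted p = 0.0400) and by 0.21 ± 0.03 with MEKi (adjusted p = 0.00640). Cmpk1 read 12.79, 12.92, 12.88 and 12.87 in MEKi/CD40 tumors, 13.00, 12.94, 12.91, 13.00 and 12.92 in MEKi tumors, 12.74, 12.64, 12.64 and 12.81 in anti-CD40 tumors and 12.71, 12.81, 12.71, 12.71 and 12.76 in control tumors, and the MEKi tumors all lay above every control. Rrm2b, the p53-regulated small subunit of ribonucleotide reductase, rose by 0.33 ± 0.06 with MEKi (adjusted p = 0.0219) and differed by 0.21 ± 0.12 with MEKi/CD40 (adjusted p = 0.387). Its signals were 9.15, 8.93, 8.61 and 9.06 in MEKi/CD40 tumors, 9.05, 9.15, 9.07, 9.10 and 8.95 in MEKi tumors, 8.64, 8.98, 8.66 and 9.10 in anti-CD40 tumors and 8.54, 8.73, 8.73, 8.90 and 8.76 in control tumors. MEKi tumors all exceeded the controls, while MEKi/CD40 tumor 3 lay within them.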

How the data were processed

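RNA was hybridised to 18 single-colour Affymetrix Mouse430_2 arrays, 1 per tumor. The deposited values are log2 intensities per probe set, which the authors normalized by RMA in Chipster (version and genome build not given in the sources used here). They ran from 2.16 to 16.34, and 34.4% equalled the lowest value, which is unlike plain RMA output, so dim differences are compressed and the background step is uncertain.

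Of 45101 probe sets, 64 controls were left out and 45037 tested without a filter. Of these 34945 had 1 gene symbol, 932 several and 9160 none in the platform annotation, and the symbols of all 46 genes matched RefSeq. A set with a cross-hybridisation suffix was not used if the gene had any other. limma 3.58.1 in R 4.3.3 (statmod 1.5.0) was fitted to each pair of groups and, for the interaction, to all arrays, with Benjamini-Hochberg adjustment over all probe sets and a threshold of 0.05. Errors are SE of the fit, and SD where stated. The number of arrays (4 or 5 per group) limits the precision. The script was tested on simulated shifts. The dim-signal filter kept sets at 5 or above on at least 4 arrays.

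Values in every array were given for the smallest and largest p of each role against control with MEKi/CD40, the 3 smallest p of each other comparison, and each gene that was not called, was at the floor or had probe sets that disagreed in sign or call with MEKi/CD40 against control. From the second list the 5 smallest p and genes moving the other way were named. The members, lists, rules and tests were chosen with earlier results of these data known. The p-values set each difference between groups against the spread between tumors within groups. Alternatives were 1 fit of all arrays, a replicate block, the number series as a block or the low series alone, quantile and cyclic loess normalization, the dim filter, a floor of 3, a trended robust variance, gene means over probe sets, removal of each replicate or of the 3 highest adipocyte arrays, and the adipocyte signal as a covariate.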

Additional observations from a re-analysis of the deposited data

Results flagged for a closer look

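Of 187 sets of tumor values from 1 group, 11 had a single tumor far from the others by Dixon's criterion, which chance alone gives in about 1 of 20. In the anti-CD40 group, tumor 1 was the low one for Gmnn (9.86, next 10.09), Mcm5 (9.75, next 10.16), Mcm6 (12.07, next 12.44), Mcm7 (12.25, next 12.54), Gins4 (9.16, next 9.49), Pole (8.40, next 8.79), Rpa2 (9.39, next 9.67) and Chaf1b (7.91, next 8.27). The median deviation of the 46 genes from the control mean was -0.239 in that tumor, against -0.045 in the next lowest of its group. Its adipocyte signal of 3.30 and fibroblast signal of 11.11 were the lowest of the anti-CD40 tumors, and its part in the results was not tested beyond the removal of each tumor in turn. Orc1 in MEKi/CD40 tumor 3 read 5.93, with the next of its group at 4.52. Orc2 in control tumor 1 read 8.71, with the next control at 8.55.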

How the results depend on the processing

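Values are genes called lower of 46. For MEKi/CD40 against control (37) they were 16 on blocking for number series, 0 in the low series alone, 6 when the 3 highest adipocyte arrays were left out, 6 when the adipocyte signal was a covariate, and 21 to 43 on leaving out 1 tumor. The counts were 21, 23 and 24 without MEKi/CD40 tumors 1, 2 and 4, and 23 and 24 without control tumors 1 and 4. For MEKi against control (29) they were 0 in the low series alone, 16 with a trended robust variance, and 14 to 32 on leaving out 1 tumor (14, 15, 17 and 19 without control tumors 1 to 4, and 16 without MEKi tumor 1). Its median moved to -0.96 with the covariate, an adipocyte signal that did not overlap between MEKi and control tumors. MEKi/CD40 against MEKi gave 7 with all arrays in 1 fit and 3 with dim sets left out, instead of 0. MEKi/CD40 against anti-CD40 (20) gave 40 with all arrays in 1 fit, 13 with cyclic loess, 38 with dim sets left out, 0 without the 3 highest adipocyte arrays, 5 with the covariate, and 6 to 40 on leaving out 1 tumor (13, 6, 6 and 8 without anti-CD40 tumors 1 to 4, and 9 without MEKi/CD40 tumor 1, 2 or 4). MEKi against anti-CD40 (10) gave 0 on blocking for number series, in the low series alone, with a trended robust variance and without the 3 highest adipocyte arrays. It gave 28 with dim sets left out, 18 with gene means, 19 with the covariate and 0 to 13 on leaving out 1 tumor (0 without anti-CD40 tumor 2 or 3, 3 without anti-CD40 tumor 4 or MEKi tumor 1, and 6 without MEKi tumor 2 or 5). The interaction (0) gave 1 with dim sets left out, without the 3 highest adipocyte arrays and under the covariate, and 0 to 6 on leaving out 1 tumor (6 without MEKi/CD40 tumor 3, and 1 without MEKi/CD40 tumor 4 or MEKi tumor 1 or 3). Anti-CD40 against control gave 0 in every analysis run. The causes were not tested. The number series could not be used for MEKi/CD40 against anti-CD40, which both lay in the low series, and the 3 highest adipocyte arrays were in neither group of MEKi against control.

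The shared replicate numbers did not pair the tumors. Over 25 same-numbered pairs the correlation of deviations from the group means ran from -0.30 to 0.23, and in 4 of 25 cases the tumor correlated best with its own number. With the replicate block 0 were called for MEKi/CD40 against control, 0 for MEKi against control, 4 for MEKi/CD40 against anti-CD40 and 0 for MEKi against anti-CD40. Of all 18193 genes, 45, 0, 410 and 1 were called lower in these 4 comparisons. An unadjusted p under 0.05 in limma was found for 40, 36, 40 and 32 of 46 genes. Of all genes 25.9%, 23.8%, 26.9% and 18.4% had one.

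Of the 37 genes called with MEKi/CD40 against control 19 were called whichever tumor was left out, as were 13 of 29 with MEKi, 6 of 20 for MEKi/CD40 against anti-CD40 and 0 of 10 for MEKi against anti-CD40. Among the 46 genes with MEKi/CD40 against control and the genes called in other comparisons, only Tyms turned its direction. Other uncalled genes were not followed singly, but without MEKi tumor 4 the difference with MEKi was negative in 45 genes instead of 46, and without anti-CD40 tumor 1 that with anti-CD40 was negative in 23 instead of 33. For Tyms the difference with MEKi/CD40 against control (-0.03) was 0.0075 with the replicate block, 0.0475 on blocking for number series, 0.0475 in the low series alone, 0.0775 with values below 3 raised to 3, 0.204 without the 3 highest adipocyte arrays, 0.0849 with the covariate, and -0.226 to 0.0907 on leaving out 1 tumor.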
